A study of Homo sapiens with 9 samples.

Results

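Clone 1 is a JAG1 knockout line made in MDA-MB-231-D3H2LN, a human cell line descended from the breast cancer line MDA-MB-231, and it was compared with the wild-type cells that express JAG1. The comparison was defined by the libraries' labels and took 6 of the 9 RNA-seq libraries of the series, 3 of clone 1 and 3 of wild type. The other 3 came from a second knockout clone, and they entered the estimate of the spread between libraries. Per the labels, Cas9 protein was delivered together with guide RNAs that cut separate places within an exon of JAG1, and the homozygous clone was expanded out of a single cell. All groups shared the same culture medium, and the labels set them apart by JAG1. The delivery and the single-cell expansion that made a knockout clone cannot be told apart from the loss of JAG1 here. Clone 1 is therefore 1 line, and the values describe that line. Nothing in the labels says that the libraries of a group came from separate cultures, and a p-value therefore covers only how far these libraries vary, which may be technical variation.

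JAG1 is a membrane-bound ligand that acts on the Notch receptors of neighbouring cells. Ligand binding leads to cleavage of the receptor, and the released intracellular domain joins the DNA-binding protein RBPJ and switches on target genes such as those of the HES and HEY families. In breast cancer the pathway is known for its roles in basal-like tumours, in invasion and in metastasis.

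Total counts ran from 16890890 to 22334156 over the 6 libraries, and 16921 genes had enough counts for testing. The first principal component of log2 CPM (counts relative to the TMM-scaled library size) carried 45.1% of the variance, with scores of 41.5, 30.5 and 44.3 in clone 1 and of -28.3, -32.6 and -55.5 in wild type. By edgeR's quasi-likelihood test with Benjamini-Hochberg adjustment over all genes tested, 933 genes (5.51%) differed at an adjusted p under 0.05. Of these, 239 (1.41% of the genes tested) were higher and 694 (4.1%) were lower in clone 1. A fit of only the 6 libraries called 1296 genes, 508 higher and 788 lower, which put 39.2% of the calls on the higher side, against 25.62% in the fit of all 9. With more than a 2-fold difference there were 101 higher genes (0.597%) and 250 lower genes (1.48%). A call that kept its sign and stayed under 0.05 in each of the 9 fits that left out 1 library is said below to hold, and 167 calls did (39 higher and 128 lower). The fewest calls remained without clone 1 replicate 3 (200), followed by wild type replicate 3 (278), clone 1 replicate 2 (330), clone 1 replicate 1 (383) and wild type replicate 2 (436).

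**Figure D1:**
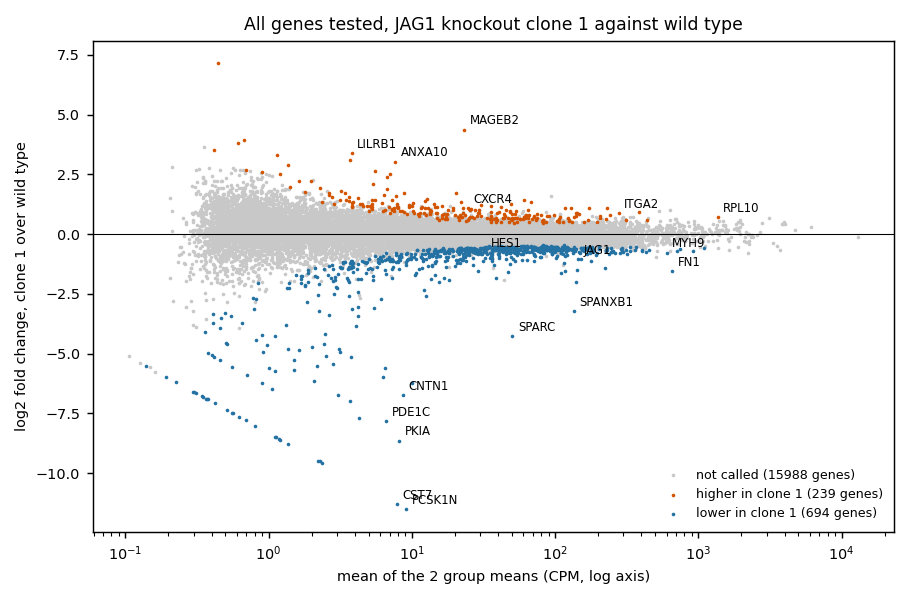
Each point is 1 of 16921 genes. The horizontal axis is the mean of the group means in CPM on a log axis, and the vertical axis is the log2 fold change of clone 1 over wild type. The 239 higher genes and 694 lower genes are coloured, and the lower genes reach much larger changes than the higher ones (PCSK1N and CST7 at the bottom were at 0 counts in clone 1, so their fitted positions depend on the prior count).

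The results turn on genes that were nearly silent in clone 1, on the genes that were raised most and on the Notch targets, so the promoters of 4 of them are shown (RefSeq, GRCh38.p14, from 250 bases before the start to 50 after it, 5′ to 3′ on the gene's strand). In HES1 the capitals mark TGGGAA, the core letters of the RBPJ motif, searched on both strands, and in the others they mark CpG dinucleotides. A match is a description of the letters in the window and not a bound site.
HES1 (chr3:194135898-194136197, plus strand): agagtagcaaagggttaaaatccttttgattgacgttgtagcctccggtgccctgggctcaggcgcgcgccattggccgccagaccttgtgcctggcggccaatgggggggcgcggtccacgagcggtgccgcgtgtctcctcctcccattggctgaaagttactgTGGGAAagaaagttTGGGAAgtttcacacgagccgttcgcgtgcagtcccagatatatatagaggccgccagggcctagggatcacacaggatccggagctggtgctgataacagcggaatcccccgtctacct
PCSK1N (chrX:48835561-48835860, minus strand): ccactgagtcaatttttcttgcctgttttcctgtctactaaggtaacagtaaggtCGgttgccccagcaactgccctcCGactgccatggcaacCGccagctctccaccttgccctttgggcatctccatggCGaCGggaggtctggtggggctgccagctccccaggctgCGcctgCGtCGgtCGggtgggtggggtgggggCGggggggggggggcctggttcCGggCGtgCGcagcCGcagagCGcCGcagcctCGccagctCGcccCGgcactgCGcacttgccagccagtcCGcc
PDE1C (chr7:32299279-32299578, minus strand): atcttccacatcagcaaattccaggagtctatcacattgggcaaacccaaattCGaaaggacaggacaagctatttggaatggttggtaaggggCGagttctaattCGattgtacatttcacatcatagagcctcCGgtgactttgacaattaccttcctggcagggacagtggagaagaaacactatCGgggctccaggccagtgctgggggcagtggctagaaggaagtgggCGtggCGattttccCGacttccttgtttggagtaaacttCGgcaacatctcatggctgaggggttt
MAGEB2 (chrX:30215313-30215612, plus strand): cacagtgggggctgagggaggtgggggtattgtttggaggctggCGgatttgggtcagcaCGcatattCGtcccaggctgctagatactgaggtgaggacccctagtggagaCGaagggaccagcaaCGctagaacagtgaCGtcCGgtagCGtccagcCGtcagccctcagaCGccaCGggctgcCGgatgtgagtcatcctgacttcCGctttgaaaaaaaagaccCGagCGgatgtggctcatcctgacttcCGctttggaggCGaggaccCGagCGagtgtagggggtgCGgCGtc
TGGGAA on either strand was present in 2383 of the 10977 promoters of tested genes that had an entry (21.71%). Among the called Notch targets with an entry it was in 1 of 3, HES1, whose copies begin 84 and 70 bases before the start. The promoters of tested genes held a median of 26 CpG, while those of the 20 largest decreases held 12.5 (18 with an entry) and those of the 20 largest increases held 10 (17 with an entry). Over all called genes the medians lay closer to that of the genes tested, at 25 CpG for lower genes (524 with an entry) and 22 CpG for higher genes (166 with an entry).

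JAG1 RNA was lower in clone 1 but was not lost. JAG1, on chromosome 20 from 10637684 to 10674107 (GRCh38, minus strand), had 110, 80.8 and 92.3 CPM in the clone 1 libraries, against 246, 161 and 181 CPM in wild type. Every clone 1 library lay below every wild-type library, and the difference was -1.05 on the log2 scale (SE 0.18, edgeR adjusted p = 0.00312). The count is over the whole gene, so RNA that carries the cut exon is counted too and the loss of protein is not measured here. In bulk RNA, fewer cells with a transcript and less of it per cell cannot be told apart. The call held, and its largest adjusted p was 0.0309, without clone 1 replicate 2. The stretch of chromosome 20 from 10 to 20 Mb, with JAG1 included, had a median difference of -0.293 on the log2 scale over 33 genes tested. JAG1 was among its 5 lower genes, and 0 were higher. The part of that shift in the JAG1 value was not tested.

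Of the other Notch ligands and receptors with enough counts, 0 of 6 passed the test. NOTCH2, the most abundant receptor by count, averaged 226 ± 19.7 CPM in clone 1 and 272 ± 34.8 CPM in wild type (SD, n = 3 each). NOTCH1 averaged 40.2 ± 4.78 CPM in clone 1 and 45.3 ± 9.35 CPM in wild type, and the ligand JAG2 averaged 33.4 ± 5.26 CPM in clone 1 and 33.5 ± 1.28 CPM in wild type, with overlapping libraries for all 3 genes. DLL3 and DLL4 had too few counts for testing. DLL4 had 0, 0 and 0 counts in clone 1, against 12, 6 and 12 in wild type. DLL3 had 0, 3 and 0 counts in clone 1, against 2, 0 and 2 in wild type.

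Among 20 Notch target genes tested, 4 were lower and 0 were higher, with a median of -0.50 on the log2 scale beside -0.016 over all genes tested. Over all genes tested 4.1% were lower and 1.41% were higher, and the counts of each list below stand beside these shares. HES1, the repressor that is the classic Notch target, had 24.8, 24.9 and 23.1 CPM in clone 1, against 43.3, 39.7 and 40.8 CPM in wild type. The libraries of each group lay close together and the groups did not overlap (log2 difference -0.77, SE 0.17, edgeR adjusted p = 0.0157). BHLHE40, a basic helix-loop-helix repressor, averaged 68.1 ± 10.1 CPM in clone 1 and 121 ± 20.1 CPM in wild type, and SNAI2, a repressor of epithelial genes, averaged 21.6 ± 5.87 CPM in clone 1 and 39.1 ± 7.43 CPM in wild type. GATA3, a luminal transcription factor, averaged 8.38 ± 0.169 CPM in clone 1 and 13.2 ± 0.991 CPM in wild type. None of these 4 calls held: 0 remained without clone 1 replicate 3 and 0 without wild type replicate 3, and the edgeR adjusted p of HES1 came to 0.0914 without clone 1 replicate 3. HEY1 was low in every library, at 1.63 ± 0.275 CPM in clone 1 and 1.61 ± 0.144 CPM in wild type, and NRARP, a feedback inhibitor, averaged 2.96 ± 0.348 CPM in clone 1 and 4.90 ± 0.57 CPM in wild type without passing the test (adjusted p = 0.164). Of 32 tested regulators of the pathway, 5 were lower and 1 was higher. The lower ones were NEURL1B (-0.69), an E3 ligase for ligand uptake, the coactivator MAML2 (-0.84), NUMBL (-0.71), and the E3 ligases ITCH (-0.55) and DTX4 (-1.61), and the higher one was FBXW7 (0.71), which marks the cleaved receptor for destruction. Of these 6 calls, 0 held, and both directions had 0 calls without clone 1 replicate 3 or without wild type replicate 3.

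The largest differences were losses. In clone 1, 30 genes had at most 3 counts summed over its 3 libraries although they averaged at least 1 CPM in wild type, and 26 of them were protein-coding. The reverse, at most 3 counts in wild type and at least 1 CPM in clone 1, was met by 0 genes. PCSK1N, which encodes the proSAAS inhibitor of a prohormone convertase, had 0, 0 and 0 counts in clone 1, against 449, 363 and 349 in wild type. With a floor of 3 counts over the group this is at least 352-fold lower in clone 1. CST7, cystatin F, which inhibits cysteine proteases in lysosomes, likewise had 0, 0 and 0 counts in clone 1, against 236, 424 and 348 in wild type, at least 306-fold lower. PKIA, a peptide inhibitor of protein kinase A, had 0, 0 and 2 counts in clone 1, against 361, 390 and 291 in wild type. The ratio was 474 (95% counting interval 131 to 3917), and intervals and floors cover counting error only. PDE1C, a calcium- and calmodulin-stimulated phosphodiesterase, had 0, 1 and 2 counts in clone 1, against 300, 254 and 285 in wild type, a ratio of 254 (86.7 to 1236). For these genes no wild-type library had fewer than 236 counts, while no clone 1 library had more than 2.

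TLR4, the receptor for bacterial lipopolysaccharide, had 3, 0 and 0 counts in clone 1, against 154, 191 and 129 in wild type, a ratio of 144 (48.9 to 699). COCH, a secreted matrix protein, had 3, 0 and 0 counts in clone 1, against 126, 141 and 122 in wild type. Genes at 0 counts in all clone 1 libraries also included PTCHD1, a patched-domain membrane protein (308 counts in wild type, at least 93.4-fold lower), ARHGAP15, a GTPase-activating protein for Rac (292, at least 88.5-fold), FSTL5, a secreted follistatin-like protein (289, at least 87.6-fold), the LIM-domain cofactor LDB2 (180, at least 54.6-fold), the tyrosine kinase SYK (154, at least 46.7-fold) and the presynaptic adhesion molecule NRXN3 (143, at least 43.3-fold). All 30 were called, which their choice by these same counts made likely, so the calls add no separate support. The calls of CES1 and MYH4 did not hold. Their largest edgeR adjusted p were 0.0617 and 0.0689, both without wild type replicate 3. The calls of the other near-absent genes held.

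Other large decreases left measurable RNA. CNTN1, a contactin of the neuronal surface, had 0.0518, 0.285 and 0.111 CPM in clone 1, against 17.0, 12.1 and 22.5 CPM in wild type. SPARC, a collagen-binding matrix protein, had 6.73, 4.04 and 4.07 CPM in clone 1, against 136, 74.8 and 76.8 CPM in wild type (log2 difference -4.27, SE 0.28, edgeR adjusted p = 2.91e-07). Wild type replicate 1 was the highest library for SPARC, and the lowest wild-type value was still far above the clone 1 values. PLXDC2, a plexin-domain membrane protein (-6.24), CNNM1, of a family of magnesium-transport proteins (-5.99), the orphan nuclear receptor RORB (-5.60), the kinase NRK (-5.45), the leucine-rich repeat protein LRRC17 (-5.13), KYNU, an enzyme of tryptophan breakdown (-4.95), and the neural transcription factor POU3F2 (-4.82) all had means under 0.3 CPM in clone 1. The remaining genes among the 20 largest decreases were the ribonuclease RNASE1 (-3.41), the collagen COL8A2 (-3.13) and ARMCX2 (-3.09), besides MAGEA6 and SPANXB1. Calls of all 20 held when single libraries were left out, and that of NRK was lost under limma-voom (adjusted p = 0.0971).

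Increases were smaller. After MAGEB2, described with the cancer-testis genes, the largest was LILRB1, an inhibitory receptor for MHC class I that leukocytes usually carry, with 3.16, 8.89 and 8.80 CPM in clone 1, against 0.389, 1.31 and 0.251 CPM in wild type. The annexin ANXA10 had 14.9, 16.3 and 9.91 CPM in clone 1, against 2.14, 2.37 and 0.503 CPM in wild type. HSD11B1, which regenerates active glucocorticoid, had 11.2, 11.5 and 11.3 CPM in clone 1, against 1.89, 1.95 and 2.56 CPM in wild type. No clone 1 library fell among the wild-type libraries in any of the 3 genes, as the choice of the largest increases required. The log2 differences were 3.37 (SE 0.60), 3.02 (SE 0.45) and 2.41 (SE 0.35). G0S2, an inhibitor of triglyceride breakdown, averaged 87.6 ± 3.81 CPM in clone 1 and 32.7 ± 12.2 CPM in wild type, MAL2, a protein of epithelial transcytosis, averaged 97.2 ± 18.8 CPM in clone 1 and 37.8 ± 13.1 CPM in wild type, and AHRR, the repressor of the aryl hydrocarbon receptor, averaged 17.9 ± 4.70 CPM in clone 1 and 6.91 ± 0.337 CPM in wild type. Calls of MAGEB2, LILRB1, ANXA10, CT83, HSD11B1, MYH15, XAGE2, NAA11, G0S2, AHRR and MAL2 held. Another 8 of the largest increases (PINLYP, SRPK3, HMGN5, ADGRF1, PRCD, ADAM28, HS6ST3 and ITGA10) lost the call without at least 3 of the libraries, with edgeR adjusted p reaching 0.17 for PINLYP without wild type replicate 3 and 0.0949 for PRCD without clone 1 replicate 3.

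**Figure D2:**
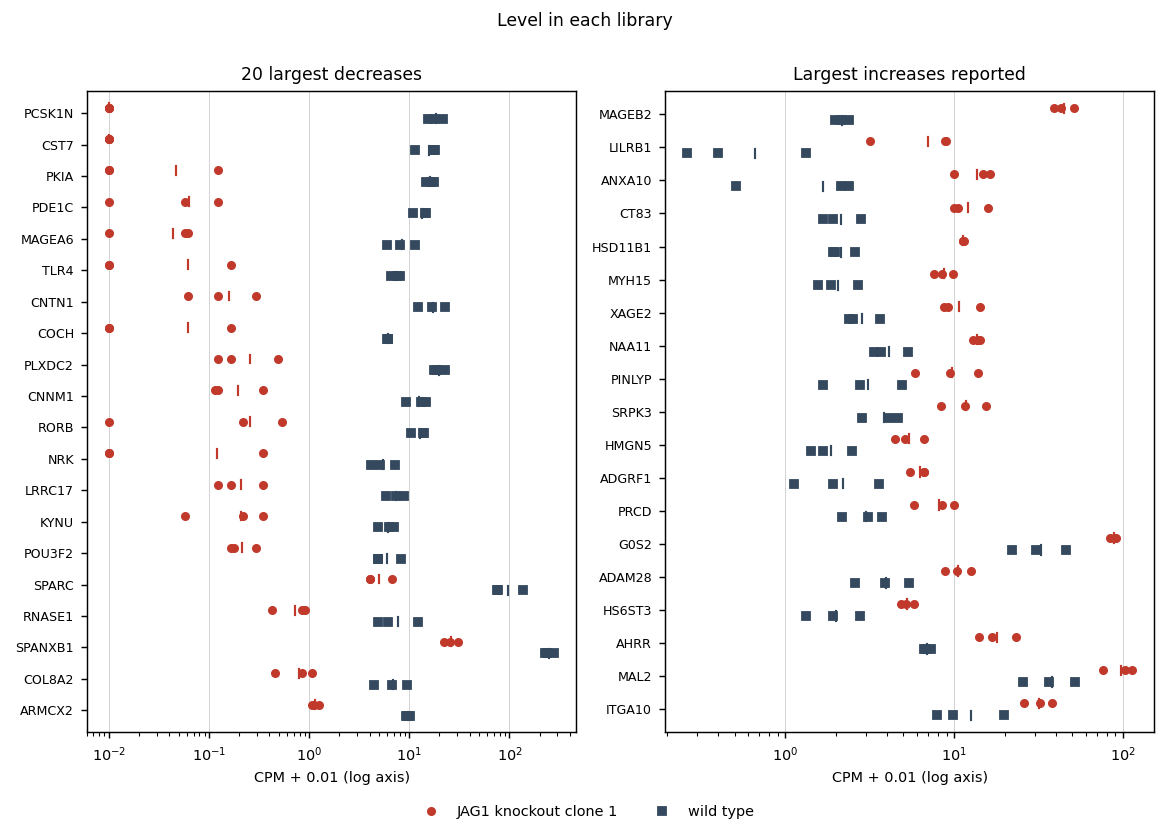
Level of the 20 largest decreases and of the largest increases reported, in each library, in CPM + 0.01 on a log axis, with clone 1 as red circles drawn above wild type as dark squares and a short bar at each group mean. Clone 1 values for the decreases sit down to 0 CPM, as for PCSK1N and CST7, whereas wild-type values for the increases mostly lie between 1 and 10 CPM.

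Cancer-testis genes, normally limited to germ cells and often reactivated in tumours, moved in both directions. Of 17 tested, 4 were higher and 6 were lower, which leaves 7 without a call, and 45 further members of the list had too few counts. MAGEB2 had 50.9, 42.9 and 39.1 CPM in clone 1, against 1.94, 2.37 and 2.11 CPM in wild type. CT83 had 10.0, 10.5 and 15.8 CPM in clone 1, against 1.89, 2.79 and 1.66 CPM in wild type. Both genes were several-fold above wild type in every clone 1 library (log2 differences 4.36, SE 0.21, and 2.50, SE 0.32). XAGE2 (1.90) and NAA11 (1.72) were also higher. SPANXB1 had 25.3, 22.1 and 30.8 CPM in clone 1, against 224, 279 and 234 CPM in wild type. MAGEA6 had 1, 1 and 0 counts in clone 1, against 234, 141 and 160 in wild type, and MAGEA3 averaged 1.87 ± 0.429 CPM in clone 1 and 6.97 ± 0.257 CPM in wild type. SPANXC, SSX1 and MAGEA12 were lower too, and the call of MAGEA12 alone did not hold (edgeR adjusted p up to 0.154, without clone 1 replicate 2). The MAGEA, SPANX, SSX and XAGE families have near-identical copies, and NAA11 has a close paralog in NAA10, so how reads were split between copies is uncertain.

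A part of the genes of actin contractility and focal adhesion was called lower in clone 1, and none was called higher. Of 45 tested, 12 were lower and 0 were higher, and the median was -0.458 on the log2 scale. All 3 clone 1 libraries lay below all 3 wild-type libraries in 24 genes and above them in 1. Over all genes tested 16.5% lay apart in the lower direction and 29.6% in either. RHOB, a small GTPase, had 29.7, 27.5 and 24.6 CPM in clone 1, against 61.8, 53.2 and 47.3 CPM in wild type. MYL9, the regulatory light chain of non-muscle myosin, had 84.1, 73.8 and 50.1 CPM in clone 1, against 176, 163 and 142 CPM in wild type. FSCN1, which bundles actin in filopodia, had 76.8, 82.9 and 54.1 CPM in clone 1, against 131, 137 and 133 CPM in wild type. In each of these genes the highest clone 1 library was clearly below the lowest wild-type library. MYLK, the kinase of myosin light chain, had 13.3, 15.3 and 16.5 CPM in clone 1, against 24.7, 36.4 and 36.9 CPM in wild type. Log2 differences were -0.99 for RHOB (SE 0.16), -1.21 for MYL9 (SE 0.20), -0.91 for FSCN1 (SE 0.16) and -1.12 for MYLK (SE 0.20), and these 4 calls held. The other 8 were CALD1, LIMA1, MYH9, ACTN1, CNN2, TPM1, ZYX and ROCK2, with differences from -0.58 for ZYX to -0.82 for CALD1. They did not hold, so that 4 lower calls were left without clone 1 replicate 3 and 5 without wild type replicate 3, and the highest edgeR adjusted p was 0.277, for ROCK2 without wild type replicate 3. Heavily expressed members were among them: ACTN1, alpha-actinin, had 566, 537 and 501 CPM in clone 1, against 737, 863 and 1051 CPM in wild type, and MYH9, the heavy chain of non-muscle myosin, had 475, 421 and 431 CPM in clone 1, against 596, 762 and 933 CPM in wild type. Wild type replicate 3 was the highest library for both. Outside that list, 2 of the 10 largest losses in CPM among called genes were also of actin-binding proteins, the severing protein CFL1 with 875 ± 49.6 CPM in clone 1 and 1316 ± 42.8 CPM in wild type, and the bundling protein LCP1 with 349 ± 36.3 CPM in clone 1 and 554 ± 90.6 CPM in wild type, and neither call held (largest edgeR adjusted p 0.201 and 0.179).

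**Figure D3:**
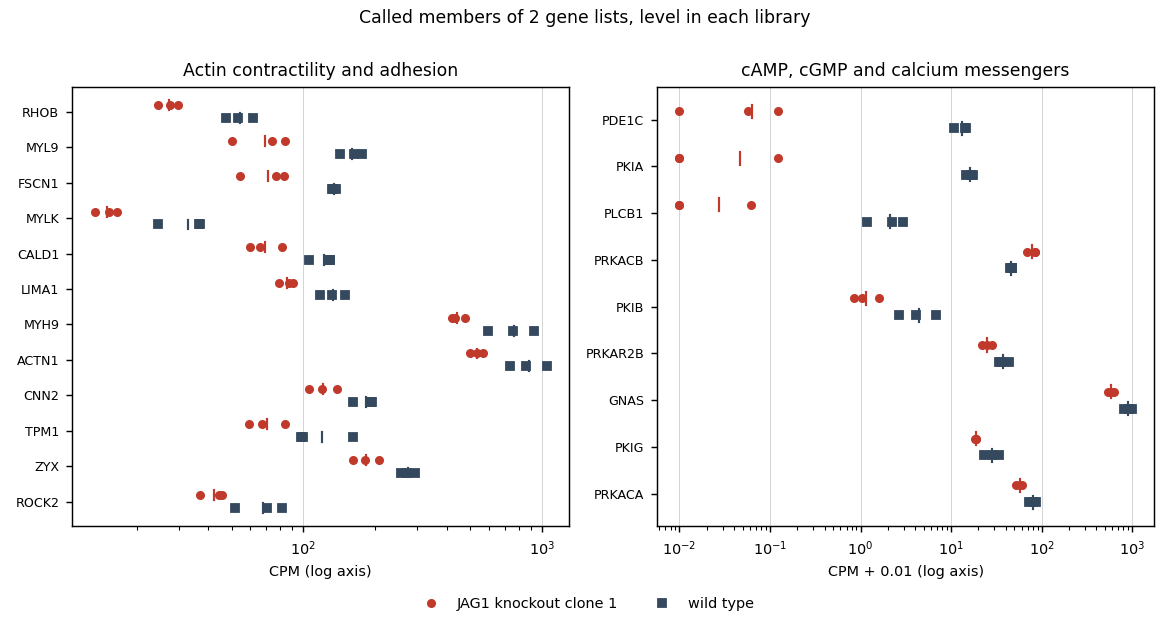
Level in each library of the called members of the actin list (12 genes, CPM on a log axis) and of the second-messenger list (9 genes, CPM + 0.01 on a log axis), with clone 1 as red circles drawn above wild type as dark squares and short bars at the group means. All 12 actin genes and 8 of the 9 messenger genes lie lower in clone 1, and PRKACB is the exception.

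Most matrix and mesenchymal genes had no call, and those called were mostly lower. Fibronectin, FN1, lost more CPM than any other called gene, with 413, 276 and 310 CPM in clone 1, against 1278, 848 and 813 CPM in wild type (log2 difference -1.56, SE 0.29, edgeR adjusted p = 0.00796, and 0.0528 without clone 1 replicate 3). Of 23 tested EMT transcription factors and mesenchymal genes, 7 were lower and 0 were higher (median -0.528): besides SPARC, FN1, CALD1, SNAI2 and TPM1 these were the collagen crosslinker LOXL2 (-0.60) and the repressor ZEB2 (-0.94), and of the 7 only SPARC held. Without clone 1 replicate 3, 1 remained, and without wild type replicate 3, 3 did. VIM, the mesenchymal intermediate filament, did not pass the test, at 845 ± 78.4 CPM in clone 1 and 1218 ± 276 CPM in wild type (adjusted p = 0.126). The summed level of 7 fibroblast markers, 0 of them called, was 27.8 to 32.2 CPM in clone 1 and 30.7 to 64.2 CPM in wild type, and its part in these values was not tested. Of 56 extracellular matrix genes, 5 were lower, 3 were higher and 48 had no call. The fit of the 6 libraries gave 9 lower and 5 higher, and 2 lower calls remained without clone 1 replicate 3. EMILIN2 (-1.05), which held, LAMA4 (-1.47), COL18A1 (-0.75), COL12A1 (-0.84) and LAMA5 (-1.84) were lower. The higher ones were COL4A5 (1.15) and the chains LAMB3 and LAMA3 of the laminin that anchors hemidesmosomes. LAMB3 had 320, 283 and 313 CPM in clone 1, against 182, 129 and 215 CPM in wild type, and LAMA3 had 68.3, 72.8 and 97.0 CPM in clone 1, against 40.9, 64.1 and 43.3 CPM in wild type, without overlap in either gene. The 3 higher calls were lost without clone 1 replicate 3, and the edgeR adjusted p of LAMB3 was then 0.0957.

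Among integrins, 2 of 16 were higher and 1 was lower. ITGA2, a collagen receptor chain, had 356, 348 and 373 CPM in clone 1, against 202, 173 and 215 CPM in wild type (log2 difference 0.87, SE 0.14). ITGB4, the laminin receptor chain of hemidesmosomes, had 108, 166 and 139 CPM in clone 1, against 253, 268 and 232 CPM in wild type (-0.87, SE 0.17). These 2 calls held, and ITGA10, also a collagen receptor chain (1.35), reached an edgeR adjusted p of 0.117 without clone 1 replicate 3. Of 57 matrix proteases and protease inhibitors, 10 were lower and 0 were higher. CST3, cystatin C, had 76.7, 87.5 and 79.7 CPM in clone 1, against 154, 157 and 153 CPM in wild type, with little spread in either group. SERPINB9, an inhibitor of granzyme B (-1.21), and the membrane-type metalloprotease MMP15 (-1.58) were lower too, and with CST7 and CST3 they held. The lower calls in that list numbered 4 without clone 1 replicate 3 and 4 without wild type replicate 3. Among 34 epithelial keratins and junction genes, KRT7 (-1.12), KRT8 (-0.70), KRT18 (-0.67) and KRT80 (-0.72) were lower and KRT15 (1.02) was higher. KRT7 averaged 111 ± 18.7 CPM in clone 1 and 242 ± 53.6 CPM in wild type, and its call alone of the 5 held. KRT18 reached an edgeR adjusted p of 0.212 without wild type replicate 3.

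The cAMP, cGMP and calcium messenger list had 8 lower and 1 higher among 44 tested. All 3 protein kinase A inhibitors were lower: PKIA as above, PKIB with 1.04, 1.57 and 0.835 CPM in clone 1, against 4.03, 6.73 and 2.61 CPM in wild type, and PKIG with 18.2, 19.0 and 18.7 CPM in clone 1, against 33.9, 28.7 and 23.2 CPM in wild type. No clone 1 library overlapped the wild-type range in any of them. The kinase's catalytic subunits moved in opposite directions. PRKACB had 84.5, 83.8 and 69.1 CPM in clone 1, against 46.6, 44.5 and 46.8 CPM in wild type (log2 difference 0.78, SE 0.13, edgeR adjusted p = 0.00312). PRKACA averaged 56.9 ± 4.57 CPM in clone 1 and 79.9 ± 7.39 CPM in wild type (-0.49, SE 0.13, adjusted p = 0.0423). GNAS, the stimulatory G protein alpha subunit, had 582, 626 and 545 CPM in clone 1, against 815, 919 and 989 CPM in wild type, and PLCB1, a phospholipase C, had 1, 0 and 0 counts in clone 1, against 24, 69 and 44 in wild type. PKIG, GNAS and PLCB1 lie on chromosome 20, whose lower median is described below, and its part in their values was not tested. Calls of PDE1C, PKIA, PLCB1 and PRKACB held, while PKIB, PKIG, PRKACA, PRKAR2B and GNAS did not (largest edgeR adjusted p 0.22, for PRKAR2B without wild type replicate 3), so that 3 lower calls remained without clone 1 replicate 3. Among 51 receptors coupled to G proteins, 3 were higher and 2 were lower. The adhesion receptor ADGRF1 (1.49) was among the higher ones, and the oxytocin receptor OXTR (-1.73) and GPRC5B (-1.05) were lower, none of which held.

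Genes of neural adhesion and guidance included several of the strongest losses. Of 25 immunoglobulin-type and neural adhesion molecules, 6 were lower and 1 was higher: CNTN1, NRXN3, NRCAM (-1.73), ICAM1 (-3.37), FLRT3 (-1.47) and ICAM2 (-2.25) against NLGN1 (1.06). NRCAM had 5.28, 8.84 and 6.13 CPM in clone 1, against 20.8, 22.0 and 24.5 CPM in wild type. ICAM1, the leukocyte-binding adhesion molecule, had 0.259, 0.523 and 0.613 CPM in clone 1, against 3.59, 7.24 and 3.72 CPM in wild type. Both showed a clear gap between the groups, and with CNTN1 and NRXN3 they held, whereas FLRT3, ICAM2 and NLGN1 came to edgeR adjusted p of 0.0675, 0.0898 and 0.206 without clone 1 replicate 3. Of 43 axon guidance genes, 5 were lower and 2 were higher. The ephrin EFNB3 had 1.24, 1.38 and 1.34 CPM in clone 1, against 6.36, 9.27 and 5.58 CPM in wild type (log2 difference -2.42, SE 0.31), and its call held. PLXND1 (-0.79), NTN1 (-0.65), NTN4 (-0.59) and UNC5A (-2.04) were lower, while PLXNA3 (1.02) and the repulsive ligand SEMA3A (0.76) were higher. Without clone 1 replicate 3 the guidance list had 2 lower and 0 higher calls.

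Inflammatory genes were lower where they were called, apart from CXCR4 and 2 Toll-pathway genes. CXCR4, the receptor for CXCL12 that is known for guiding tumour cells to lymph nodes, had 30.04, 39.0 and 31.5 CPM in clone 1, against 18.6, 12.7 and 16.4 CPM in wild type. All clone 1 libraries were above all wild-type libraries (log2 difference 1.08, SE 0.19, edgeR adjusted p = 0.00467), and the call held. It was the 1 higher gene among 43 chemokines, interleukins and receptors, of which 4 were lower: IL7R (-1.28), IL7, TNFSF10 (-1.71) and CX3CL1 (-2.06). IL7R averaged 21.7 ± 6.62 CPM in clone 1 and 52.7 ± 8.72 CPM in wild type, and its ligand IL7 was at 0 counts in each clone 1 library and averaged 0.598 ± 0.099 CPM in wild type. None of the 4 held, and 0 remained without clone 1 replicate 3, with an edgeR adjusted p of 0.102 for IL7R. Of 42 interferon-stimulated genes, 7 were lower and 0 were higher. IFI27 had 5.85, 5.09 and 4.68 CPM in clone 1, against 16.9, 19.2 and 12.6 CPM in wild type (log2 difference -1.64, SE 0.26), and it held. IFITM3 (-0.77), BST2 (-1.38) and SAMD9L (-1.09) were lower too, but 1 of the 7 remained without clone 1 replicate 3 and 3 without wild type replicate 3, and IFITM3 came to an edgeR adjusted p of 0.0696 without clone 1 replicate 3. Among 31 Toll-like receptor and NF-kappaB genes, 5 were lower (TLR4, ICAM1, NFKB1, RELA and SAA1) and 2 were higher (TLR6 and IRAK1). NFKB1 averaged 22.3 ± 2.00 CPM in clone 1 and 39.0 ± 6.24 CPM in wild type, with an edgeR adjusted p of 0.015 that came to 0.0954 without wild type replicate 3.

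Secreted growth factors changed in both directions, 5 lower and 3 higher of 54 tested. TGFB2 had 24.4, 35.0 and 28.9 CPM in clone 1, against 49.2, 58.2 and 74.9 CPM in wild type. INHBA, the activin A subunit, had 8.55, 4.66 and 4.29 CPM in clone 1, against 28.7, 19.7 and 16.2 CPM in wild type. FSTL1, which binds activins and BMPs, had 79.8, 57.9 and 66.3 CPM in clone 1, against 167, 97.9 and 139 CPM in wild type. These 3 ligands or binders of the TGF-beta family lay lower in every clone 1 library (log2 differences -1.04, -1.88 and -0.98) and held. WNT ligands moved apart: WNT7B averaged 64.4 ± 9.54 CPM in clone 1 and 35.6 ± 6.87 CPM in wild type (0.86, SE 0.16, held), and WNT5A averaged 24.3 ± 2.52 CPM in clone 1 and 48.3 ± 13.2 CPM in wild type (-0.99, SE 0.20, edgeR adjusted p 0.0785 without clone 1 replicate 3). PDGFB (-1.40) was lower, and HBEGF (0.57) and STC1 (0.78) were higher, none of which held. SPRY2 and SPRY4, feedback inhibitors of receptor tyrosine kinase signalling, were each higher by 0.49, the 2 calls among 43 MAPK feedback and immediate-early genes, and neither held (edgeR adjusted p 0.213 for SPRY4 without clone 1 replicate 3). Among 27 receptor tyrosine kinases, MERTK (0.99) was higher and ROR2 (-1.06) was lower, and neither held (edgeR adjusted p 0.0963 and 0.118 without clone 1 replicate 3). Calls made up 7.41% of these kinases and 4.65% of the MAPK list, near the 5.51% over all genes tested. Of 64 glycosyltransferases and sulfotransferases, 3 sialyltransferases were higher and 2 others were lower, against 4 higher and 4 lower in the fit of the 6 libraries. The called share of that list was 7.81%, beside 5.51% over all genes tested. ST8SIA4, which makes polysialic acid, had 28.7, 35.3 and 28.7 CPM in clone 1, against 17.6, 11.5 and 14.4 CPM in wild type (1.09, SE 0.19, held). ST3GAL6 (1.04) and ST3GAL1 (0.66) did not hold, with edgeR adjusted p of 0.0914 and 0.1 without clone 1 replicate 3.

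The metabolic lists differed in their calls. Of 44 oxidative stress and glutathione genes, 6 were lower and 0 were higher. GSTM1, a glutathione transferase, had 1.24, 2.42 and 1.11 CPM in clone 1, against 9.96, 9.05 and 12.7 CPM in wild type (log2 difference -2.71, SE 0.29). SLC7A11, the cystine importer, had 35.6, 41.6 and 56.6 CPM in clone 1, against 90.9, 79.8 and 126 CPM in wild type (-1.15, SE 0.19). Both held without overlap between the groups, while PGD (-0.70), HMOX1 (-1.02), NFE2L2 and NQO1 did not, and 2 lower calls remained without clone 1 replicate 3. Of 47 genes of amino acid transport and synthesis, 7 were lower and 0 were higher, led by KYNU, by SLC7A11 and by ASS1, which makes argininosuccinate, with 6.02 ± 0.926 CPM in clone 1 and 16.4 ± 1.95 CPM in wild type (-1.44, SE 0.21, held). Without clone 1 replicate 3, 3 lower calls remained. Retinoid and aldehyde metabolism had 3 lower of 25: TGM2, the retinoid-inducible transglutaminase, averaged 121 ± 7.30 CPM in clone 1 and 322 ± 65.9 CPM in wild type (-1.42, SE 0.18, held), and the retinal dehydrogenase ALDH1A3 (-1.15) and the retinol transporter STRA6 (-1.91) did not hold. In steroid and prostaglandin metabolism, HSD11B1 was higher and CYP24A1 (-2.22, held), CYP1B1 (-1.09) and CYP27A1 (-1.37) were lower among 35 tested. Cholesterol and fatty acid synthesis genes had 1 call among 43, ACSL5 (0.82), although their median was -0.39. That median came with a wide spread between the clone 1 libraries: HMGCS1 had 34.3, 104 and 136 CPM in clone 1, against 90.1, 177 and 143 CPM in wild type, so that clone 1 replicate 1 lay far below the others.

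Most genes of the cell-cycle lists had no call. Among 50 mitosis genes, MYBL2, TPX2 and CDC25B were lower and BUB3 and SPC24 were higher, none of which held, and without clone 1 replicate 3 the list had 0 calls. Among 45 DNA replication genes GINS1 (-1.08, held), MCM2 (-0.79) and RPA1 (-0.61) were lower and 0 were higher, against 2 higher in the fit of the 6 libraries. Called shares were 10.0% for mitosis and 6.67% for replication, beside 5.51% over all genes tested. GINS1, MYBL2, TPX2 and CDC25B lie on chromosome 20. Among 40 regulators of the G1 phase 3 were lower and 0 were higher. RB1 (-0.67), the retinoblastoma protein gene, and PHLDA3 (-1.89) were among the lower ones, and of the 3 only PHLDA3 held. None of 37 proteasome, 41 lysosome and autophagy or 13 mitochondrially encoded genes passed edgeR's test, and 1 of 61 respiratory chain genes (NDUFB1) and 1 of 75 ribosomal protein genes (RPL10) was higher. Medians of the last 2 lists were 0.206 and 0.229 on the log2 scale. In the fit of the 6 libraries alone the respiratory chain list had 12 higher calls and 1 lower, and the ribosomal list had 6 higher and 0 lower.

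**Figure D4:**
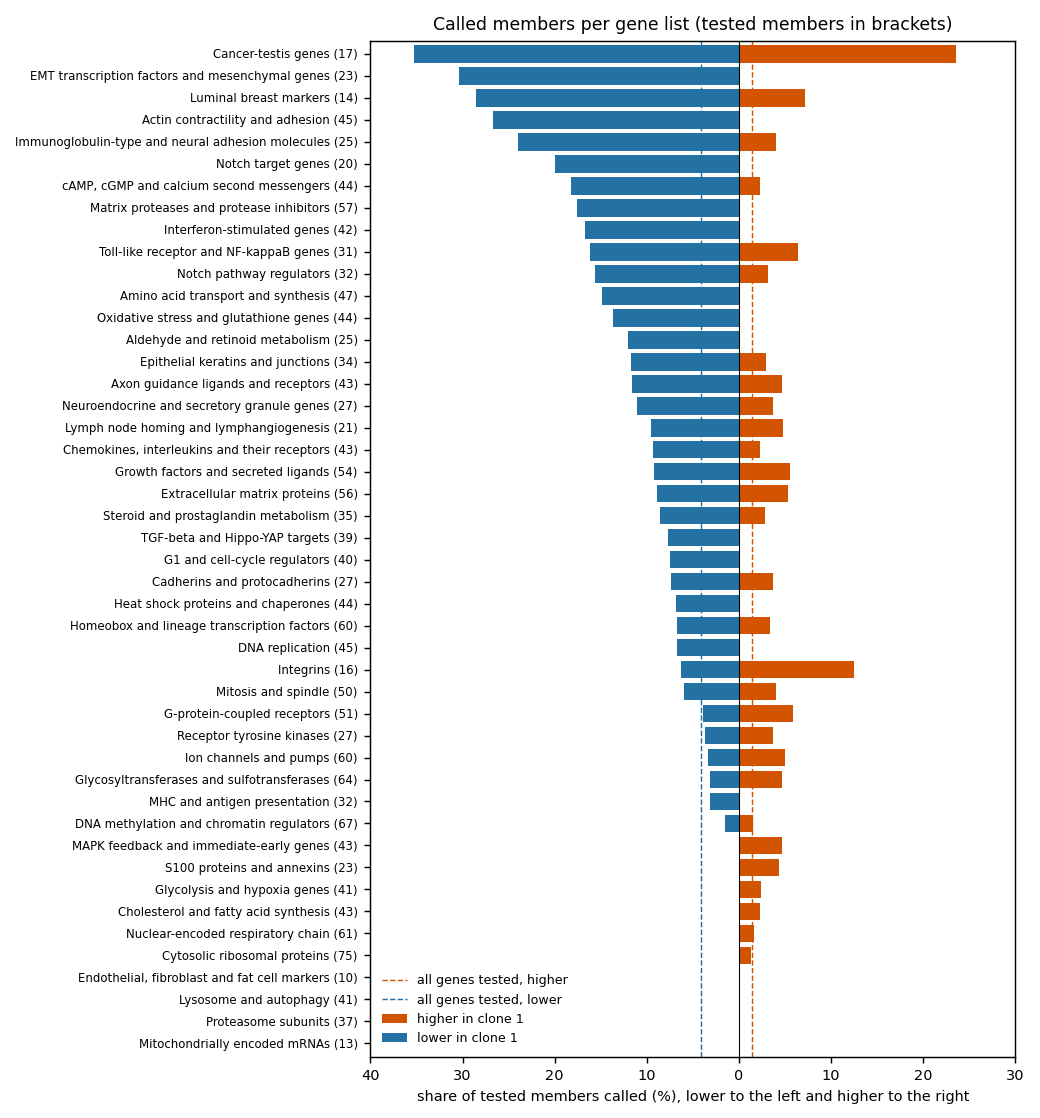
Share of tested members called lower (left, blue) and higher (right, orange) in clone 1, for each gene list with at least 10 tested members, whose number stands in brackets. Dashed lines give the share over all genes tested, 4.1% lower and 1.41% higher, and the longest bars belong to the cancer-testis list (6 lower and 4 higher of 17).

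More long noncoding RNAs were called higher than lower, unlike protein-coding genes. Of 819 tested, 17 were higher and 8 were lower, with a median of 0.334 on the log2 scale, whereas 191 of 13428 protein-coding genes were higher and 678 were lower, with a median of -0.071. These RNAs took 0.835%, 0.765% and 0.939% of the counts in clone 1, against 0.738%, 0.737% and 0.612% in wild type. The highest and lowest shares were in clone 1 replicate 3 and wild type replicate 3, which also had the highest and lowest mitochondrial mRNA shares (4.90% and 1.66%), and the part of this in the result was not tested. Symbols without a type had a median of 0.381 (24 higher and 8 lower of 1878), other types had 0.282 (7 higher and 0 lower of 796), and the 4231 genes with the lowest mean CPM had 0.236 (15 higher and 85 lower). MIR34AHG, the host transcript of the microRNA miR-34a, had 5.85, 7.56 and 6.35 CPM in clone 1, against 0.777, 0.804 and 0.704 CPM in wild type (log2 difference 3.10, SE 0.48, edgeR adjusted p = 0.00151). LINC01322 (2.63) and RGMB-AS1 (1.30) were also higher and held, as MIR34AHG did, while LINC00705 (1.47) and SLFNL1-AS1 (1.32) did not (edgeR adjusted p 0.0852 without clone 1 replicate 3 and 0.164 without wild type replicate 3). LINC00707 (-1.24) and AC092171.4 (-0.84) were lower and did not hold. Whether counting used the strand is not stated here, and reads of antisense RNAs and their partners cannot be told apart.

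Part of the change followed position in the genome. Of 287 windows of 10 Mb with at least 15 tested genes, the highest median lay at the end of the X long arm, from 150 to 160 Mb, where 30 of 70 genes were higher and 3 were lower and the median was 0.632 on the log2 scale. Relative to the wild-type mean, the median gene of that window stood at 0.632, 0.626 and 0.634 in the clone 1 libraries and at -0.051, 0.024 and 0.011 in the wild-type libraries. All 3 clone 1 libraries showed nearly the same shift. VBP1, a prefoldin subunit, had 322, 327 and 296 CPM in clone 1, against 165, 136 and 146 CPM in wild type (1.08, SE 0.17), NAA10, an N-terminal acetyltransferase, had 61.5, 52.4 and 57.1 CPM in clone 1, against 28.1, 25.8 and 25.1 CPM in wild type (1.11, SE 0.14), and VMA21, an assembly factor of the proton pump, averaged 187 ± 12.8 CPM in clone 1 and 104 ± 9.88 CPM in wild type (0.84, SE 0.15). These 3 calls held. RPL10, which also lies there and has many pseudogene copies, gained more CPM than any other called gene, with 1831, 1614 and 1624 CPM in clone 1, against 1091, 900.5 and 1115 CPM in wild type, but its call did not hold (edgeR adjusted p 0.132 without clone 1 replicate 1). The 3 lower genes of the window were MAGEA3, MAGEA6 and MAGEA12. IRAK1 and PLXNA3, named above with the Toll and guidance lists, lie in the window as well. The part of its shift in their values was not tested. Without clone 1 replicate 3 the window had 7 higher calls, and without wild type replicate 3 it had 9.

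Chromosome 20 was lower along most of its length, with 82 of 445 genes lower, 1 higher and a median of -0.301. PLCB1, PKIG and GNAS of the messenger list lie on it, as do MYL9 of the actin list, TGM2 and other called list members named above. The part of the chromosome's shift in their values was not tested. The chromosome's lowest window, from 20 to 30 Mb, was also the lowest of all, with 14 of 33 genes lower, 0 higher and a median of -0.613. The clone 1 libraries stood there at -0.652, -0.574 and -0.791 relative to the wild-type mean. That window holds the cystatin genes CST3, CST7, CST4 and CST2, the last 3 at 0 counts in every clone 1 library, as well as SYNDIG1, also at 0 counts, and GINS1. CST4, CST2 and SYNDIG1 were already low in wild type, with means of 0.384, 0.738 and 0.749 CPM, against 15.6 CPM for CST7. The call of CST2 ended without clone 1 replicate 3, and those of CST4 and SYNDIG1 ended without any of several libraries. From 30 to 40 Mb, 21 of 113 genes were lower, 0 were higher and the median was -0.366. Lower calls on the chromosome numbered 19 without clone 1 replicate 3 and 26 without wild type replicate 3, and those of the 20 to 30 Mb window numbered 8 and 9. The other named windows were on chromosome 4 from 140 to 150 Mb (8 lower of 29, median -0.508), on chromosome 10 from 130 to 140 Mb (4 higher of 24, median 0.510) and on chromosome 4 from 170 to 180 Mb (2 higher of 20, median 0.464). Without clone 1 replicate 3 these came to 0 lower, 1 higher and 0 higher calls. PPP2R2D on chromosome 10, a phosphatase regulatory subunit, averaged 75.4 ± 5.75 CPM in clone 1 and 45.7 ± 5.70 CPM in wild type (0.72, SE 0.14, held), and SMAD1 on chromosome 4, a mediator of BMP signalling, averaged 3.03 ± 0.716 CPM in clone 1 and 6.75 ± 0.205 CPM in wild type (-1.15, SE 0.26, edgeR adjusted p 0.113 without clone 1 replicate 3). With chromosome 20 and the distal X window set aside, 208 of 16406 genes were higher and 609 were lower, so most calls lay elsewhere. Gene copy number was not measured.

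**Figure D5:**
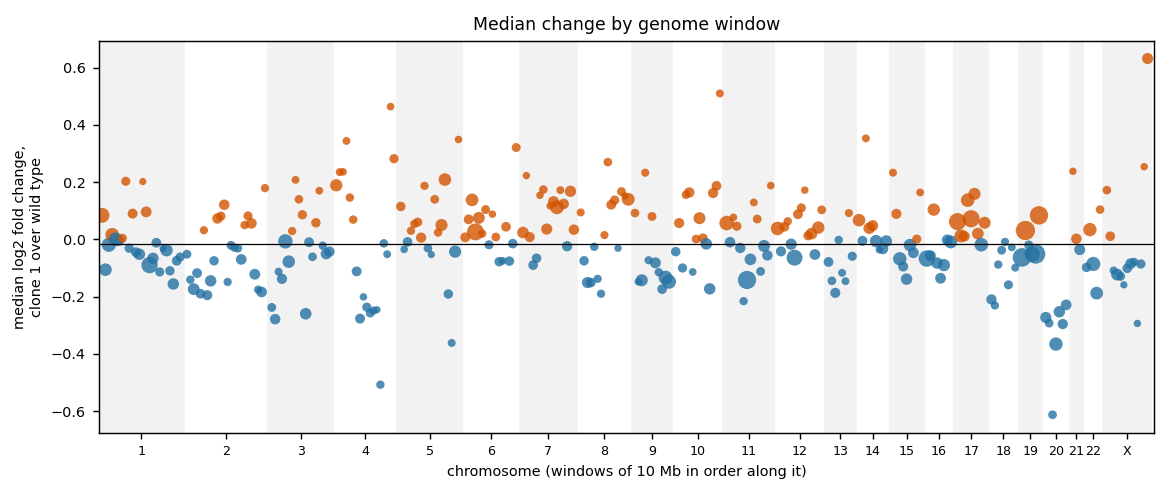
Median log2 fold change of clone 1 over wild type in each of 287 windows of 10 Mb, in order along the chromosomes, with point size rising with the number of genes tested and a line at the median of all genes (-0.016). The last window of X (0.632) stands highest and 1 on chromosome 20 (-0.613) lowest.

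Clone 1 was also compared directly with the other knockout clone, and part of the losses named above were shared. Summed over the libraries, clone 2 had 2 counts of PKIA, 7 of TLR4 and 0 of MAGEA6, ARHGAP15, FSTL5, NRXN3 and PLCB1. Other near-absent genes were present in clone 2, with 1688 counts of PCSK1N, 413 of CST7, 769 of PDE1C, 225 of COCH and 417 of PTCHD1. By the same edgeR fit, 5733 genes (33.9%) differed between clone 1 and clone 2. For MAGEB2, clone 2 had 0 counts in all libraries, where clone 1 averaged 44.3 CPM and wild type 2.14 CPM. PCSK1N averaged 0 CPM in clone 1, 29.3 CPM in clone 2 and 18.2 CPM in wild type, and CNTN1 averaged 0.149 CPM in clone 1, 43.6 CPM in clone 2 and 17.2 CPM in wild type. The heavily expressed MYH9 averaged 442 CPM in clone 1, 1497 CPM in clone 2 and 763 CPM in wild type. In the distal X window the median difference of clone 1 minus clone 2 was 0.923 on the log2 scale, with 50 of 70 genes called, and on chromosome 20 it was -0.301, with 205 of 445 called. Each clone's comparison with wild type uses the same wild-type libraries.

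Signs of other cell types and of RNA quality were as follows. Of 7 leukocyte markers 4 were at 0 counts, and their summed level was 1.19 to 1.85 CPM in clone 1 and 1.70 to 4.53 CPM in wild type. In a longer list of 18 leukocyte markers only 6 could be tested. There 1 was higher and held, and 1 was lower and did not hold (33.3% called, beside 5.51% over all genes tested). Of 5 endothelial markers 0 were at 0 counts, with a sum of 4.52 to 6.46 CPM in clone 1 and 4.52 to 5.08 CPM in wild type. Markers of the line's own basal and mesenchymal state (VIM, CD44, FN1, AXL, CAV1, EGFR and ZEB1) summed to 4023 to 4876 CPM in clone 1 and 4494 to 6157 CPM in wild type, with 1 of 7 called, FN1. Among 9 epithelial or luminal markers, 3 were lower, with a sum of 623 to 759 CPM in clone 1 and 833 to 1086 CPM in wild type. Mitochondrially encoded mRNAs took 2.28%, 3.61% and 4.90% of the counts in clone 1, against 2.52%, 3.67% and 1.66% in wild type, highest in clone 1 replicate 3 and lowest in wild type replicate 3. With the log2 of that share as a covariate, a setting added after the data were seen, 687 genes were called, 158 higher and 529 lower, of which 592 were among the 933.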

How the data were processed

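RNA was sequenced from 9 libraries in 3 groups of 3. The authors deposited tables of whole-number counts per gene symbol, not normalized. Per the submitters' processing notes, STAR, featureCounts of Subread and DESeq2 were used with GRCh38, while their versions, the annotation release and the use of strand were not given in the sources used here. Both deposited tables hold the same 3 wild-type columns, which were used once.

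Genes were tested with edgeR 4.0.16 in R 4.3.3 (TMM, filterByExpr with a minimum count of 10, a robust quasi-likelihood fit with 1 coefficient for each of 3 groups over 9 libraries, 6 residual degrees of freedom, biological coefficient of variation 20.3%), and 16921 of 56505 symbols entered. Calls had a Benjamini-Hochberg adjusted p under 0.05. Alternatives used DESeq2 1.42.0, limma 3.58.1 (voom), other scalings, filters and covariates, and leaving out each library. The script was tested on simulated data. Gene types came from GENCODE 29, which matched 37335 symbols (66.07%), and for 653 others from RefSeq symbols or synonyms. Gene positions were those given with the deposited counts. Of 2126 entries in 48 gene lists, 2125 were found, 3 of them by an older symbol.

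Named genes were JAG1, the Notch lists, the 20 largest non-overlapping protein-coding changes per direction with a mean of at least 5 CPM in the higher group, the 10 largest CPM differences, up to 4 members per list by adjusted p, up to 5 long noncoding genes per direction, and the 3 lowest and 3 highest windows. Other called list members, near-absent genes and genes in windows were named after their values were seen. The comparison, its members and lists were chosen with earlier results of these data known. Some named genes are not reported here.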

Additional observations from a re-analysis of the deposited data

Results flagged for a closer look

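For 16 of 66 named genes examined, clone 1 and clone 2 were called in opposite directions against wild type, and the direct edgeR test of clone 1 against clone 2 gave an adjusted p under 0.05 for each. The values that follow are clone 1 minus clone 2 on the log2 scale. Both clones were compared with the same wild-type libraries. Groups of 3 libraries are too small for a test of single outlying libraries.

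Genes higher in clone 1 included 5 with 0 counts in every clone 2 library, for which the fitted difference depends on the prior count and is no bound. They were MAGEB2 (12.79), CT83 (10.92), XAGE2 (10.74), NAA11 (11.09) and HMGN5 (9.76). The metalloprotease gene ADAM28 differed by 3.25, with 10.5 CPM in clone 1, 1.09 CPM in clone 2 and 3.94 CPM in wild type.

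In the other direction, PCSK1N differed by -12.2 with 0 counts in every clone 1 library, so this value too is no bound. CNTN1 differed by -8.09, CNNM1 by -7.30, SPANXB1 by -4.25 and ARMCX2 by -3.97. Heavily expressed genes differed less: MYH9 by -1.76, EEF2, the translation elongation factor, by -1.70, NCL, nucleolin, by -1.52, and ACTN1 by -1.41. The long noncoding AC092171.4 differed by -1.62.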

How the results depend on the processing

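No setting reversed a named call. Against 933 calls (239 higher and 694 lower), testing without a filter on low counts gave 1512 (461 higher and 1051 lower), DESeq2 gave 1479 (518 higher), the fit of the 6 libraries gave 508 higher, the covariate for the mitochondrial share, added after the data were seen, gave 158 higher, and a test against a 1.5-fold change gave 115 (17 higher and 98 lower). In that last test JAG1 kept its difference of -1.05 with an adjusted p of 0.178, since a larger change is required. Leaving out 1 library gave 200 to 1301 calls, 41 to 445 higher and 159 to 856 lower, and the cause of the spread was not tested. Same-numbered libraries of clone 1 and wild type correlated at 0.245, 0.082 and -0.097 in their deviations from the group means. Differently numbered ones correlated at -0.268 to 0.215. Whether the replicate numbers pair the libraries was not tested. With the replicate block there were 2322 calls (751 higher and 1571 lower), and with the block and the correction for GC content and length there were 2282 (774 higher and 1508 lower). RLE scaling, voom and the correction for GC content and length alone kept each count within 1.5 times. Residual degrees of freedom and depth limit what can be called, and low genes are resolved least.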

Other observations

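Single genes of secretory granules, ion channels and lineage transcription factors were also called, while most genes of these lists were not. Of 27 neuroendocrine and secretory granule genes, 3 were lower and 1 was higher. SCG2, a granin of secretory granules, averaged 3.18 ± 0.884 CPM in clone 1 and 11.3 ± 2.44 CPM in wild type, and with PCSK1N it held. STX1A, a fusion protein of the synaptic membrane, averaged 114 ± 4.84 CPM in clone 1 and 67.7 ± 15.3 CPM in wild type, and its call did not hold. Of 60 ion channel and pump genes, 3 were higher and 2 were lower (8.33% called, beside 5.51% over all genes tested). Of the higher calls, 0 remained without clone 1 replicate 3 or without wild type replicate 3. CACNG4, an auxiliary calcium channel subunit, had 2.18, 2.47 and 2.12 CPM in clone 1, against 9.28, 8.08 and 8.20 CPM in wild type, with a wide gap between the groups, and its call alone of the 5 held. Among 60 homeobox and lineage transcription factors, 2 were higher and 4 were lower, of which 0 higher and 1 lower remained without clone 1 replicate 3. MSX2 averaged 6.23 ± 0.951 CPM in clone 1 and 12.9 ± 1.93 CPM in wild type and held. The epithelial ETS factor EHF averaged 25.4 ± 2.41 CPM in clone 1 and 14.6 ± 0.542 CPM in wild type, with an edgeR adjusted p of 0.0102 that came to 0.0547 without clone 1 replicate 2. CD74, the invariant chain of MHC class II, was the 1 lower call among 32 antigen presentation genes, with 15.6 ± 3.46 CPM in clone 1 and 38.1 ± 6.90 CPM in wild type, and an edgeR adjusted p of 0.0818 without clone 1 replicate 3.

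Among heavily expressed genes, BNIP3, a mitochondrial protein of mitophagy that hypoxia induces, had 355, 591 and 570 CPM in clone 1, against 192, 341 and 260 CPM in wild type. Clone 1 replicate 1 lay only a little above the highest wild-type library. The call did not hold (edgeR adjusted p 0.119 without clone 1 replicate 3, and 0.0508 with the mitochondrial share as covariate). It was the 1 call among 41 glycolysis and hypoxia genes. BNIP3 also lies in the raised window of chromosome 10 described above, where 4 of 24 genes were higher and the median was 0.51. The part of that shift in the BNIP3 value was not tested. NCL, the nucleolar protein nucleolin, had 369, 295 and 296 CPM in clone 1, against 435, 458 and 741 CPM in wild type. Wild type replicate 3 stood well above the other libraries for NCL, and without it the edgeR adjusted p was 0.271.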
